A study of Mus musculus with 2 samples.

Results

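The hyaluronan-binding matrix of the brain was followed through 10 genes, chosen by symbol: the lecticans Ncan, Bcan, Vcan and Acan, the link proteins Hapln1, Hapln2, Hapln3 and Hapln4, and the tenascins Tnr and Tnc. All 10 were found among 55536 annotated genes, of which 22015 were nuclear protein-coding genes. The RNA came from left cerebral cortex that was taken from male mice at 14 days of age. The strain was B6CASTF1/J, a first-generation cross between C57BL/6 and CAST parents, and total RNA was sequenced. The 2 libraries, replicates 1 and 2, formed 1 group with no treatment and no second genotype, so every comparison below is between genes, between transcripts, or between these 2 libraries. The labels give each library its own biosample but 1 donor entry for both, and they mention 3 males without saying whether tissue was pooled, so the spread between the libraries may be technical. With 2 libraries an exact sign-flip test, 2-sided, cannot go below p = 0.5, and no p-value is given.

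Lecticans are chondroitin sulfate proteoglycans. They bind the long sugar chain hyaluronan at one end and tenascin-R at the other, link proteins lock the lectican onto hyaluronan, and tenascin-R joins neighbouring lecticans into a lattice. In cortex this matrix is loose between cells and condenses into perineuronal nets, mostly around parvalbumin interneurons, during the postnatal weeks in which plasticity declines. Aggrecan and Hapln1 are among the defining net components, while versican V2 and Hapln2 are known from nodes of Ranvier.

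The libraries held 28263266 and 30862848 expected counts in annotated genes. Markers of cortical excitatory neurons reached TPM 1 (a level scaled for transcript length and for the depth of the library) in both libraries for 6 of 6 genes, and summed to 1575 and 1852 TPM in replicates 1 and 2. Of all nuclear protein-coding genes, 58.7% reached TPM 1 in both. All 8 striatal markers also reached TPM 1 in both, summing to 516 and 142 TPM, and 7 of the 8 were past 2-fold between the libraries. Of 18965 genes with at least 10 counts in 1 library, 3.94% were past 2-fold. Myelinating oligodendrocyte markers summed to 1074 and 704 TPM. All 6 cerebellar markers stayed below TPM 1 in both libraries, summing to 0.670 and 2.29 TPM, and the 4 with enough counts to compare were all past 2-fold, lower in replicate 1. The 8 parvalbumin interneuron markers were all at TPM 1 or above in both, with Pvalb itself, the calcium-binding protein that names these cells, at 13.85 and 21.16 TPM. In bulk tissue, fewer cells of a type and less RNA per cell cannot be told apart.

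Of the 10 matrix genes, 9 reached TPM 1 in both libraries, against 58.7% of all nuclear protein-coding genes, and the exception was Hapln2. The levels spanned a wide range. Neurocan and brevican, the lecticans confined largely to nervous tissue, led with 153 ± 4.62 and 143 ± 11.2 TPM (SD, n = 2) and were above 97.6% and 97.4% of nuclear protein-coding genes. Tenascin-R followed, above 93.3%, and Hapln1, above 81.7%. Aggrecan, the lectican best known from nets, was low at 1.44 ± 0.191 TPM, above 42.4% of those genes.

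**Figure D1:**
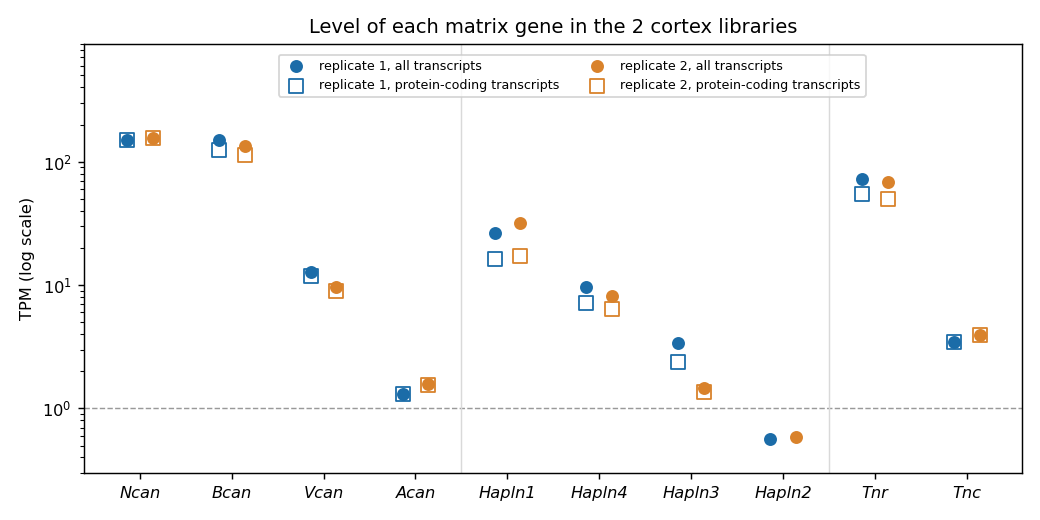
Level of each matrix gene in TPM on a log axis, with filled points for all transcripts of a gene and open squares for its protein-coding transcripts, replicate 1 left of replicate 2, and the dashed line at TPM 1. Ncan and Bcan lie above 100 TPM in both libraries, the squares of Hapln1 lie at 16.32 and 17.2 TPM below its points at 26.6 and 31.6 TPM, and Hapln2 has no square because its protein-coding transcript was listed at 0.

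Among the lecticans, Ncan had 149.25 and 155.78 TPM in replicates 1 and 2, and Bcan had 151.14 and 135.26 TPM. The order of this pair differed between the libraries, with a log2 ratio of Ncan over Bcan of -0.02 in replicate 1 and 0.20 in replicate 2, so at gene level they did not differ beyond their spread. When only transcripts annotated as protein-coding were counted, Bcan stood at 124.45 and 113.24 TPM, and Ncan, which has a single annotated transcript, kept its level. On that scale Ncan was above Bcan in both libraries, by 0.26 and 0.46 (log2).

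Versican, which surrounds cells of developing tissues and, in its V2 form, myelinated axons, had 12.65 and 9.65 TPM. Aggrecan, made by the net-bearing neurons themselves, had 1.3 and 1.57 TPM from 157 and 214 counts. Together the 4 lecticans summed to 314 and 302 TPM. Ncan made up 47.5% and 51.5% of that sum, Bcan 48.1% and 44.7%, Vcan 4.02% and 3.19%, and Acan 0.414% and 0.519%.

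Of the link proteins, Hapln1, the cartilage link protein that neurons also make, was the most abundant at 26.6 and 31.6 TPM. Hapln4, a brain link protein found with brevican in nets, had 9.72 and 8.13 TPM. Hapln3, which is expressed widely outside the brain, had 3.4 and 1.47 TPM from 97 and 58 counts. Hapln2, the link protein of nodes of Ranvier, had 0.56 and 0.59 TPM from 24 and 17 counts, and its protein-coding transcript was listed at 0 in both transcript tables. With so few counts that 0 is loose: the deposited interval of this transcript, whose level is not stated, reached 0.209 and 0.241 TPM. It goes with a separate deposited estimate, of 0.07 and 0.08 TPM, rather than with the listed 0. The counts were given mainly to a retained-intron transcript of 2338 nucleotides, with 24 and 13.92 expected counts, and in replicate 2 also to a transcript annotated for nonsense-mediated decay, with 2.58.

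Within the summed level of the link proteins, 40.3 and 41.8 TPM, Hapln1 held 66.0% and 75.6%, Hapln4 24.1% and 19.5%, Hapln3 8.44% and 3.52%, and Hapln2 1.39% and 1.41%. The 4 lecticans thus outnumbered the 4 link proteins in transcripts in each library, by the sums given.

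Of the tenascins, Tnr, made by oligodendrocytes and by some interneurons, had 72.86 and 68.76 TPM. Tnc, a glial tenascin of the developing brain, had 3.48 and 3.9 TPM. Tnr made up 95.4% and 94.6% of the pair, and its log2 ratio over Tnc was 4.23 ± 0.172 (SD, n = 2).

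By mean gene TPM the order was Ncan, Bcan, Tnr, Hapln1, Vcan, Hapln4, Tnc, Hapln3, Acan and Hapln2. Neighbours in this order differed in the same direction in both libraries, and by more than the SD of their log2 ratio, except for Ncan and Bcan, Tnc and Hapln3, and Hapln3 and Acan. Tnc over Hapln3 was 0.03 and 1.35 on the log2 scale, and Hapln3 over Acan was 1.32 and -0.09. With protein-coding transcripts only, Tnc was above Hapln3 in both libraries, by 0.54 and 1.47. The place of Vcan depended on the table: its log2 ratio over Hapln4 was 0.38 and 0.24 in the gene table, but -0.13 and -0.08 in gene sums of the second transcript table. For protein-coding transcripts of the second table it was 0.36 and 0.27.

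Each lectican gene lies beside a link protein gene with no annotated gene between them (GENCODE M21 on mm10), which gives 4 natural pairs. Vcan (chr13:89655312-89742509, minus strand) and Hapln1 (chr13:89539796-89611652, plus strand) are 43659 bases apart and point tail to tail. So do Ncan (chr8:70093085-70120873, minus strand) and Hapln4 (chr8:70083457-70090862, plus strand), at 2222 bases, and Acan (chr7:79053483-79115099, plus strand) and Hapln3 (chr7:79115102-79131018, minus strand), whose ends have only 2 bases between them. Bcan (chr3:87987531-88000230, minus strand) and Hapln2 (chr3:88021750-88027583, minus strand) lie 21519 bases apart. The tenascin genes Tnr (chr1:159523769-159931729, plus strand) and Tnc (chr4:63959785-64047015, minus strand) are on different chromosomes. Without strand in the counting, which the sources used here do not give, reads running past the end of Acan or Hapln3 could not be assigned with certainty.

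The balance within the pairs went both ways. Vcan was below Hapln1, with a log2 ratio of TPM + 0.1 of -1.07 in replicate 1 and -1.70 in replicate 2. Bcan exceeded Hapln2 by 7.84 and 7.62, and Ncan exceeded Hapln4 by 3.93 and 4.24. Acan over Hapln3 was -1.32 and 0.09, so this pair had no shared direction. Means were -1.38 ± 0.449, 7.73 ± 0.159, 4.09 ± 0.224 and -0.62 ± 0.998 in the same order (SD, n = 2). The highest lecticans, Ncan and Bcan, thus lay beside link protein genes far below them, while Hapln1 exceeded the lectican beside it.

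Several of these gene levels rested in part on short transcripts not annotated as protein-coding. A retained-intron transcript of Hapln1, 464 nucleotides long, held 38.6% and 45.6% of the Hapln1 TPM but only 3.93% and 5.16% of its counts, because TPM divides counts by length. The same held for Tnr-205, of 660 nucleotides, with 24.4% and 28.04% of the Tnr TPM and 1.91% and 2.21% of its counts. A transcript of 503 nucleotides held 26.2% and 21.7% of the Hapln4 TPM and 3.88% and 3.05% of its counts. Counted by protein-coding transcripts alone, Hapln1 stood at 16.32 and 17.2 TPM, Tnr at 55.07 and 49.48, and Hapln4 at 7.17 and 6.37. With that change the log2 ratio of Vcan over Hapln1 was -0.70, closer to 0 than the -1.38 of the gene table, and in the same direction. Total RNA libraries also hold unspliced RNA, and its reads cannot be told apart from those of retained-intron transcripts in these tables.

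**Figure D2:**
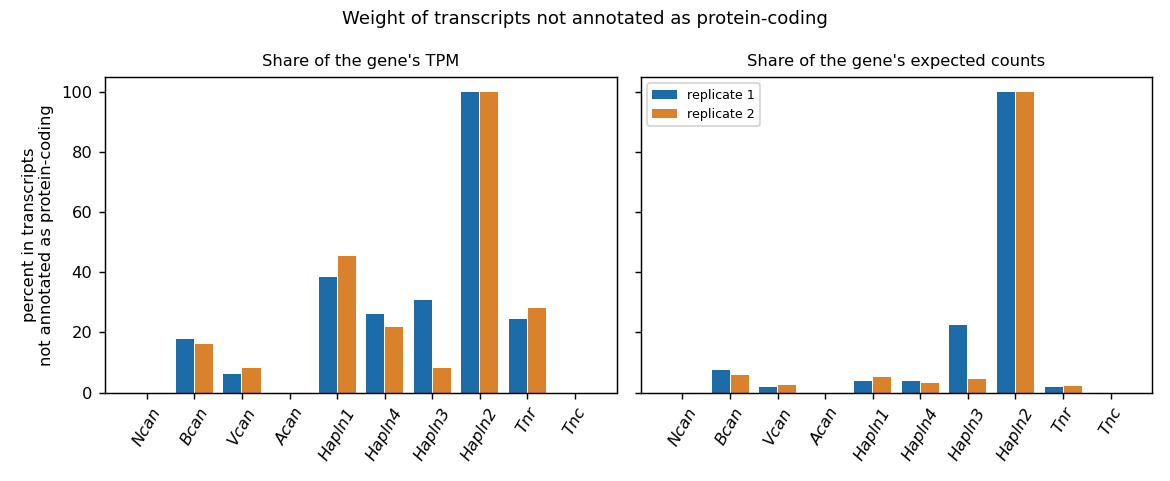
Percent of each gene's TPM (left) and of its expected counts (right) in transcripts not annotated as protein-coding, with replicate 1 left of replicate 2 in each pair of bars. Hapln1, Hapln4 and Tnr have above 20% of their TPM but under 6% of their counts in such transcripts, Hapln2 has 100% and 99.9% of its counts there, and Ncan, Acan and Tnc have 0%.

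Versican is spliced around a pair of very large exons that carry its chondroitin sulfate attachment regions, GAG-alpha and GAG-beta. V0 holds both, V1 only GAG-beta, V2 only GAG-alpha and V3 neither, so V3 carries no such region. In mm10 the GAG-alpha exon is exon 7 of Vcan-203 (chr13:89702918-89705797, minus strand, 2880 bases) and the GAG-beta exon is exon 8 (chr13:89688285-89693501, minus strand, 5217 bases). The transcripts were assigned by these exons: Vcan-203 as V0 with 3354 codons, Vcan-206 as V1 with 2394, Vcan-202 as V2 with 1615 and Vcan-201 as V3 with 655. The junctions that tell the 4 forms apart are printed below as 30 bases of the GENCODE M21 transcripts, 5′ to 3′, with the downstream exon in capitals. The junction of exon 7 to exon 8 occurs in V0 alone among 141767 reference transcripts, exon 6 to exon 8 in V1 alone, exon 7 to exon 9 in V2 alone, and exon 6 to exon 9 in V3 alone.
Vcan exon 7 to exon 8 (V0): gagaaaacaagacagGTCGATTGAGTGATA
Vcan exon 6 to exon 8 (V1): cctactgctttaaacGTCGATTGAGTGATA
Vcan exon 7 to exon 9 (V2): gagaaaacaagacagGACCTGATCTCTGCA
Vcan exon 6 to exon 9 (V3): cctactgctttaaacGACCTGATCTCTGCA

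V0 and V2 were the main versican forms. V0 had 4 and 2.96 TPM in replicates 1 and 2, from 935.71 and 739.15 expected counts. V2, the form of mature brain, had 4.06 and 3.72 TPM, from 431.73 and 422.23 expected counts. The pair was thus near equal in replicate 1, and V2 was above V0 in replicate 2. This order is loose, because the deposited intervals, whose level is not stated, overlapped in replicate 2. There they were 2.553 to 3.134 TPM for V0 and 2.966 to 4.165 for V2. In the second transcript table V0 had 6.115 and 4.214 TPM and V2 had 5.85 and 5.502.

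V1, abundant in many developing tissues, had 0.26 and 0.13 TPM from 40.33 and 21.07 expected counts, the lowest of the 4 forms in each library in the first transcript table. V3 had 0.93 and 0.53 TPM in that table, but the second table listed V3 at 0. The deposited interval of V3, whose level is not stated, also began at 0 in both libraries. It goes with a separate deposited estimate, of 0.81 and 0.57 TPM. Of the TPM in these 4 forms, V0 held 43.3% and 40.3%, V1 2.79% and 1.72%, V2 43.9% and 50.7%, and V3 10.04% and 7.26%. In the second table V0 held 49.6% and 42.4%, V1 2.98% and 2.26%, and V2 47.4% and 55.3%.

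The GAG-alpha region was therefore in most versican transcripts and GAG-beta in fewer. Over all protein-coding Vcan transcripts, GAG-alpha was held by 71.5% ± 5.27 of the TPM and GAG-beta by 35.3% ± 0.743 (SD, n = 2). The whole here includes protein-coding transcripts assigned to none of the 4 forms, which made up 22.2% and 17.3% of it. They range from short fragments such as Vcan-208, of 861 nucleotides, to Vcan-205, of 2273 nucleotides and 368 codons, which alone had 0.53 and 0.88 TPM. Over the 4 assigned forms alone, GAG-alpha was held by 87.2% and 91.0% and GAG-beta by 46.0% and 42.0%.

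**Figure D3:**
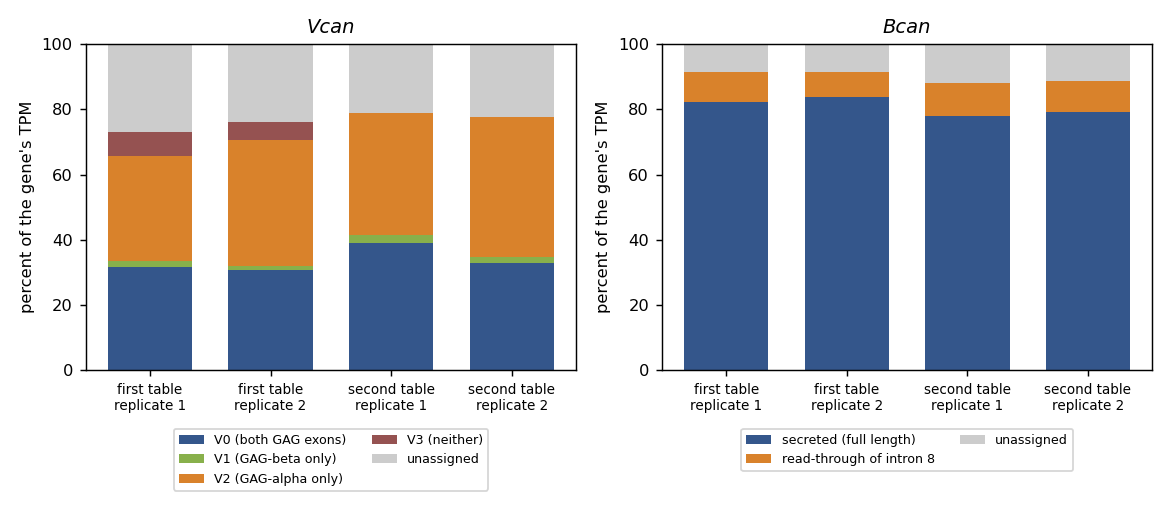
Percent of each gene's TPM in transcript classes of Vcan (left) and Bcan (right), for replicates 1 and 2 in the first and the second transcript table; grey stands for transcripts assigned to no class. V0 and V2 make up most of Vcan in all 4 bars, V3 appears only in the first table, and the read-through class of Bcan takes 9.16% and 7.60% in the first table and 10.2% and 9.41% in the second.

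Brevican exists as a secreted proteoglycan and as a shorter form held on the membrane by a GPI anchor, which in rodents is known to come from a message that reads on past exon 8. The secreted form is Bcan-201, with 14 exons and 883 codons. In GENCODE M21, Bcan-203 and Bcan-206 keep exon 8 and run into the first 541 of the 2272 bases of intron 8 (chr3:87992514-87993054, minus strand), and both are annotated as retained introns. In Bcan-203 the reading frame completes 623 codons by the end of exon 8 and 22 more in intron 8 before a stop codon, and the remaining 260 codons of the secreted form are absent. The end of exon 8 is printed in lower case with what follows it in capitals, first spliced to exon 9, then read through to the stop codon (the capitals lie at chr3:87992987-87993054).
Bcan exon 8 to exon 9 (secreted): tggctccctcatcagGTGACTGTATCCCCA
Bcan exon 8 into intron 8 (read-through): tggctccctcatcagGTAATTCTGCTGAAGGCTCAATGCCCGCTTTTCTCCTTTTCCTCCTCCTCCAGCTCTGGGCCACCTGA

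The secreted brevican transcript had 124.45 and 113.24 TPM in replicates 1 and 2. The read-through class had 13.83 and 10.29 TPM from 475.93 and 319.77 expected counts, so the secreted form was the larger in both libraries. Of the TPM in these 2 classes the secreted form made up 90.0% and 91.7%, and 88.4% and 89.4% in the second table, which gave the read-through class 697.6 and 613.24 estimated counts. The tables divided it differently: the first gave Bcan-206 196.27 and 239.52 counts, and the second placed all of it in Bcan-203. Because M21 annotates no protein-coding read-through transcript, Bcan-201 held 100% of the protein-coding TPM by annotation alone, and that share carries no measurement. Over all Bcan transcripts it held 82.3% and 83.7%. Reads of unspliced Bcan RNA would fall in the same stretch of intron 8, and cannot be told apart from the GPI-anchored message here.

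Tenascin-C is also spliced, by including or leaving out fibronectin type III repeats. Tnc-203 holds an alternative exon of 273 bases (chr4:63984460-63984732, minus strand), which Tnc-204 and Tnc-201 lack. Its entry junction and the junction that passes it over are shown because they tell inclusion of this exon from its skipping, with the downstream exon in capitals.
Tnc into the alternative exon: ccacggctaccacagAGGCCTTGCCCCTTC
Tnc past the alternative exon: ccacggctaccacagAAGCTGAACCGGAAG

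The form with the exon took 32.9% and 31.9% of the Tnc TPM in replicates 1 and 2, and the forms without it took 56.7% and 67.3%. The rest lay in a transcript that could not be assigned. The form without the exon was the larger in both libraries and in both transcript tables, where the second table gave 30.4% and 30.0% with the exon. This order is loose, because the deposited intervals, whose level is not stated, overlapped in both libraries. In replicate 1 they were 0.431 to 1.702 TPM for Tnc-203 and 0.729 to 2.184 for Tnc-204. In replicate 2 they were 0.697 to 1.82 and 1.591 to 2.787.

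Aggrecan has an alternative exon of 114 bases (chr7:79108115-79108228, plus strand) in Acan-202. This form took 18.9% and 11.1% of the Acan TPM from only 11.67 and 8.77 expected counts. The second table gave it 16.1% and 1.12%, from 10 and 0.81 estimated counts, so the counts were too few to give its share.

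None of the matrix genes differed by 2-fold between the libraries. The count was 0 of 10, against 3.94% of 18965 genes with at least 10 counts in 1 library, so it does not set them apart from other genes. Differences are given as log2 CPM (counts scaled to the depth of each library, with TMM factors, and not to gene length), replicate 1 minus replicate 2, with 95% intervals that cover counting error only. The largest in the gene table was Hapln3, at 3.43 and 1.88 CPM, a difference of 0.82 with an interval of 0.36 to 1.34. Hapln2 differed by 0.54, but its interval of -0.36 to 1.58 included 0. In the second transcript table Hapln2 had the larger difference, 0.92 against 0.77 for Hapln3. Vcan, at 53.8 and 41.7 CPM, differed by 0.34, with an interval of 0.23 to 0.45.

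Differences of Hapln4, Bcan and Tnr were smaller, at 0.19, 0.17 and 0.09, and were higher in replicate 1 like those above. The genes lower in replicate 1 were Acan, at 5.55 and 6.93 CPM with a difference of -0.34 and an interval of -0.65 to -0.04, Tnc at -0.25, Hapln1 at -0.09 and Ncan at -0.06. Hence 6 of 10 were higher in replicate 1, where 50.1% of all genes tested were. The interval left out 0 for 8 of 10, against 28.5% of all genes tested, a share that depends on how many counts a gene has. The median size of the difference was 0.22 for the matrix genes and 0.14 for all genes tested.

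**Figure D4:**
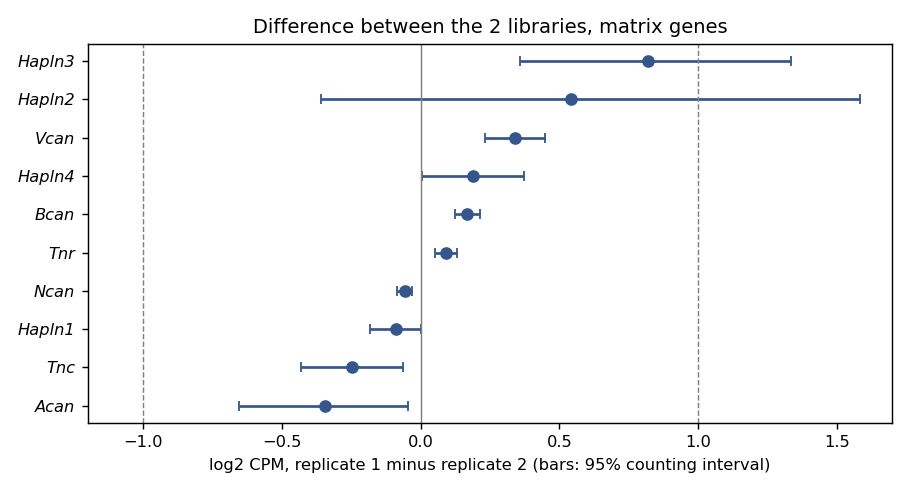
Difference between the libraries for each matrix gene in log2 CPM, replicate 1 minus replicate 2; bars are 95% counting intervals and dashed lines mark 2-fold. No gene lies past a dashed line, Hapln3 is farthest from 0 in the gene table plotted here, at 0.82, and the intervals of Hapln2 and Hapln1 include 0.

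Markers of several cell classes differed between the libraries alongside these genes. Myelinating oligodendrocyte markers were higher in replicate 1 for 8 of 8 genes, with a median log2 difference of 0.56. Genes listed as oligodendrocyte precursor markers, not all of them particular to precursors, were higher for 6 of 6, at 171 and 143 TPM in sum. Their log2 differences ran from 0.10 for Gpr17 to 0.55 for Sox10. Of the matrix genes, Vcan, Bcan, Tnr, Hapln2, Hapln3 and Hapln4 were higher in replicate 1 too. Ncan, Hapln1, Tnc and Acan were lower in replicate 1, and so were several marker lists. These were the markers of excitatory neurons for 6 of 6 genes (median log2 difference -0.36), of meningeal and perivascular fibroblasts for 6 of 6 (-0.17), of endothelium for 4 of 4 (-0.14) and of cerebellum for 4 of 4 with enough counts (-1.39). Astrocyte markers summed to 691 and 692 TPM. Parvalbumin interneuron markers were lower in replicate 1 for 5 of 8 genes. Striatal markers were higher in replicate 1 for 8 of 8. The part of these cell classes in the differences of the matrix genes was not tested.

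Among the other genes of the pathway, the enzymes that build chondroitin sulfate were broadly present. The count of each list below stands beside 58.7% of all nuclear protein-coding genes, which reached TPM 1 in both libraries. All 12 genes of linkage and chain synthesis reached TPM 1 in both libraries, led by the linkage glucuronyltransferase B3gat3 (64.5 ± 0.0354 TPM), the polymerizing factor Chpf (35.2 ± 0.156) and Chpf2 (30.9 ± 1.76). Of 10 sulfotransferases and epimerases, 8 reached it in both, and the highest were Chst15 (17.0 ± 2.79), which adds a further sulfate to sulfated galactosamine, the 4-O-sulfotransferase Chst11 (14.2 ± 0.898) and the uronyl 2-O-sulfotransferase Ust (13.4 ± 2.04). Chst13 was below TPM 1 in both libraries, at 0 and 0.03.

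Genes of hyaluronan itself held more low members. Of 16 that make, bind or break it down, 9 reached TPM 1 in both libraries, a share near the 58.7% of all nuclear protein-coding genes, and 7 were below it in both. Of the synthases, Has1 (0.16 and 0.12 TPM) and Has2 (0.22 and 0.19) were below it. The others below it were the hyaluronan receptor Hmmr (0.43 and 0.76), the binding protein Tnfaip6 (0.65 and 0.46), Stab2 (0.44 and 0.17), Hyal3 (0.69 and 0.63) and the sperm hyaluronidase Spam1 (0 and 0). The highest were Cemip, which takes part in hyaluronan breakdown (17.3 ± 4.12), the scavenger receptor Stab1 (13.9 ± 0.552) and the hyaluronidase Hyal2 (7.82 ± 0.629).

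Of 15 proteases that cut lecticans and their inhibitors, 11 reached TPM 1 in both, against 58.7% of all nuclear protein-coding genes. The inhibitors Timp2 (142 ± 15.4) and Timp3 (24.7 ± 1.74) were the highest, followed by the membrane protease Mmp14 (8.63 ± 0.0424). Adamts5 (0.75 and 0.64), Mmp3 (0 and 0), Mmp9 (0.91 and 0.62) and Timp1 (0.43 and 0.54) were below TPM 1 in both libraries.

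All 11 other brain matrix proteoglycans reached TPM 1 in both libraries, led by the testican Spock2 (261 ± 6.35), Cspg5 (189 ± 5.26), a transmembrane chondroitin sulfate proteoglycan of neurons, and Spock1 (138 ± 10.6). Spock2 and Cspg5 were thus above Ncan and Bcan in mean TPM. All 8 genes listed as receptors on neurons did so as well, led by Ptprs (294 ± 1.46), a receptor of chondroitin sulfate, by Sv2a (207.39 and 203.81 TPM), a synaptic vesicle protein rather than a matrix receptor, and by Cntn1 (176 ± 6.57), a neuronal adhesion molecule that binds tenascin-R. Of 8 factors linked to net formation, 7 reached TPM 1, with Ntrk2, the BDNF receptor, at 159 ± 2.50, Nptx1, a neuronal pentraxin, at 53.5 ± 3.29 and Crtac1 at 37.7 ± 3.56. Otx2, a homeoprotein that net-bearing interneurons take up from outside, was below TPM 1 at 0.03 and 0.48. It was the only gene of the 7 pathway lists past 2-fold between the libraries, where 3.94% of all genes tested were, and its difference rests on these low levels.

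**Figure D5:**
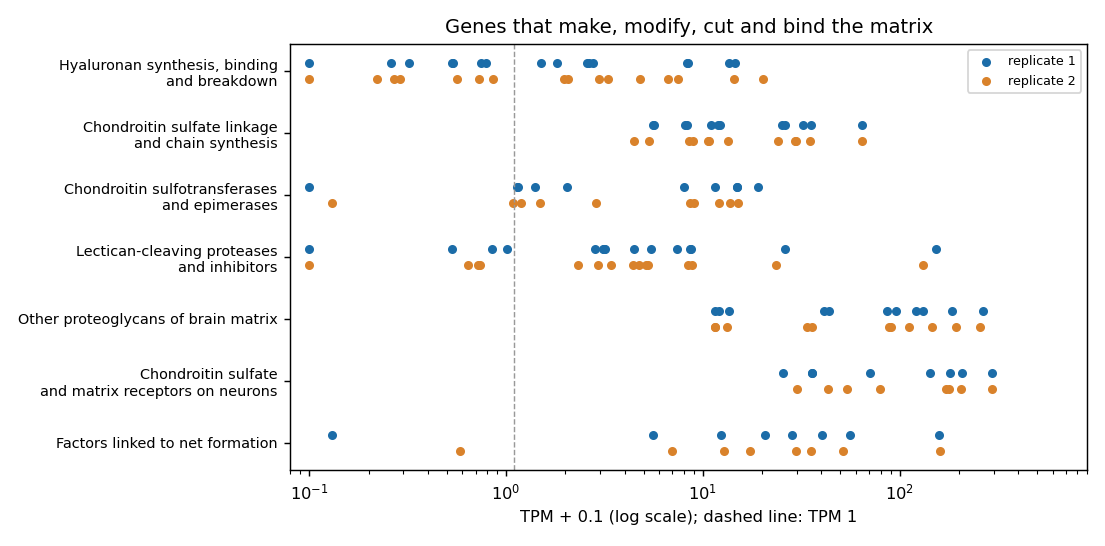
TPM + 0.1 on a log axis for the genes of 7 pathway lists, 1 point per gene and library, with replicate 1 above replicate 2 in each list and the dashed line at TPM 1. All 12 chain synthesis genes, all 11 other proteoglycans and all 8 receptors lie right of the line in both libraries, and 7 of 16 hyaluronan genes lie left of it in both.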

How the data were processed

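Total RNA from 2 libraries of 1 group was quantified by the authors. Per the file headers and descriptions, gene and transcript tables were made on mm10 with GENCODE M21; information on the aligner, the quantifier and strand is not given in the sources used here. The deposited expected counts estimate reads per gene or transcript and are not normalized, and TPM as deposited refers to the sum over every entry of a file. A second deposited transcript table holds estimated counts and TPM, summed here per gene. For the first transcript table, TPM shares per transcript class were computed from the deposited percent of a gene's transcripts, a rounded share of its TPM. For the second table they were computed from its TPM.

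Spike-in and numbered entries (0.404% and 0.387% of counts) were left out. Depth was 28263266 and 30862848 counts, so a count of 0 allows 3 counts, or 0.106 and 0.097 CPM. Rounded counts with at least 10 in 1 library were compared as log2 CPM with TMM and a prior count of 2 (edgeR 4.0.16, R 4.3.3). In simulated data this gave medians of 1 and 1.99 for true log2 differences of 1 and 2. Of 12425 unchanged genes there, 0 were past 2-fold, but only highly counted genes, out of 18965 simulated, entered that check. Counts as low as those of Hapln2 (24 and 17) and Hapln3 (97 and 58) were outside it, so it says nothing about their differences. DESeq2 1.42.0 gave alternative size factors. Intervals for library differences are Clopper-Pearson at 95% and cover counting error only. Ratios used log2(TPM + 0.1), which understates the change of low genes. Tables were handled in Python 3.11.15 (pandas 2.3.3, numpy 2.4.6, with scipy 1.17.1 for intervals).

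Genes matched M21 by identifier (55536 of 55536). Sequences are from the M21 transcripts; no protein sequence was used. The members and lists were chosen with earlier results of these data known. Of 17 hyaluronan symbols, Tmem2 (an older symbol of Cemip2, also listed) had no match. Of the list genes, those named are the 3 highest in mean TPM and those below TPM 1 in both libraries. Shared 31-base words with other genes were 0% for 5 members and at most 3.36% (Tnr). Genes that overlap members held at most 99 counts, and reads could be shared with them. Alternatives were another table, rescaled TPM, other pseudocounts, filters and floors, each library left out, and, added after seeing the data, protein-coding or assigned transcripts only.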

Additional observations from a re-analysis of the deposited data

How the results depend on the processing

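No paired analysis was possible because both libraries belong to 1 group. The count of members at TPM 1 was 9 in the second table, in each library alone and for protein-coding transcripts, and 10 with TPM rescaled to protein-coding genes or a floor of 0.5. No member was past 2-fold under any of the 5 alternatives run (DESeq2 size factors, no factors, no filter, second table, prior count of 0.5).

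With protein-coding transcripts only, the mean log2 ratio was -0.70 for Vcan over Hapln1, 4.48 for Ncan over Hapln4 and 3.79 for Tnr over Tnc, and these transcripts gave 4.40 and 4.01 for the last 2 pairs when taken from the second table. The second table with all transcripts gave 3.79 for Ncan over Hapln4 and 7.94 for Bcan over Hapln2. A pseudocount of 1 gave 6.51 for Bcan over Hapln2 and 3.94 for Tnr over Tnc, and one of 0.01 gave 7.93 for Bcan over Hapln2. No ratio to Hapln2 was taken for coding transcripts, since that transcript is listed at 0. Each library alone gave -1.70 to -1.07 for Vcan over Hapln1, 7.62 to 7.84 for Bcan over Hapln2, -1.32 to 0.09 for Acan over Hapln3, 3.93 to 4.24 for Ncan over Hapln4 and 4.11 to 4.35 for Tnr over Tnc. Acan over Hapln3 thus had no shared direction in the gene table. In the second table Acan was below Hapln3 in both libraries, at -1.25 and -0.13, but the mean of -0.69 was smaller than its SD of 0.79. For protein-coding transcripts of the second table the ratio was -0.83 and 0.19.

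The GAG-alpha share of Vcan was 86.7% in the second table, 89.1% for assigned transcripts only and 97.4% for those in the second table. The GAG-beta share was 43.3%, 44.0% and 48.6% in the same order, and 32.8% over all transcripts. Each library alone gave 67.8% to 75.2% and 34.8% to 35.8%. The secreted share of Bcan was 83.0% over all transcripts, 90.8% for assigned transcripts and 88.9% for those in the second table. Member TPM in the second table was 1.27 to 1.72 times that of the gene table, so levels hold within a table. Hapln2, Hapln3 and Acan are limited by their low counts.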
